A study of Mus musculus with 2 samples.

Results

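Vascular endothelial cells of polyps from Lkb1 heterozygous mice were examined by single-cell RNA sequencing. Cells were picked from the polyp library by their counts of unique molecular identifiers (UMIs, 1 per captured transcript). A cell had to carry at least 3 UMIs over Pecam1, Cdh5, Kdr, Plvap, Egfl7 and Esam, no Ptprc and fewer than 5 UMIs over Dcn, Col1a1, Col1a2 and Col3a1. A minimum of 500 UMIs and 250 detected genes was required, with mitochondrial UMIs making up no more than 25%. In all, 78 of 8460 kept polyp cells met this gate, out of 11712 kept cells in the series. Because the members were selected on these measured genes, the gate genes and everything tied to them are given below as a description without any test.

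The study has 1 library per group. WT is normal duodenum pooled from 3 Lkb1+/+;Myh11-Cre/ERT2 mice, and Lkb1_Het is polyp tissue pooled from 3 Lkb1flox/+;Myh11-Cre/ERT2 mice. Both groups carry the tamoxifen-inducible Cre under the Myh11 promoter, which is active in smooth muscle and pericytes, so the floxed allele is not targeted to endothelium by design. Both samples are labelled as duodenum, but the design text names duodenum only for the normal tissue, so the site of the polyps is not settled. Gut region and polyp therefore cannot be told apart in any ratio of polyp to normal cells. Genotype and library also differ between the groups and cannot be told apart from polyp either. The age of the mice is not given in the labels, and the mice within a pool cannot be separated. No p-value can be had from 1 library per group, and every interval below is a 95% interval for counting error only.

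Blood endothelium lines capillaries, veins and arteries, and in the intestinal mucosa its capillaries are fenestrated, with PLVAP forming the diaphragms of the pores. VEGF-A signals to these cells through KDR (VEGFR2), while FLT1 (VEGFR1) binds the ligand as a decoy and NRP1 is a co-receptor. Postcapillary veins admit leukocytes through P-selectin and, in the gut, MAdCAM-1. Lymphatic endothelium is a separate lineage set by PROX1 and carries LYVE1, VEGFR3 (FLT4) and the chemokine CCL21.

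The libraries were of similar depth, with a median of 2284.5 UMIs per kept cell in the polyp and 2431 in normal duodenum. The same gate found 7 of 3252 kept cells in normal duodenum, 0.215% (0.0866–0.443, Clopper-Pearson), against 0.922% (0.729–1.15) in the polyp. The share in the polyp was 4.28 times that in normal duodenum (1.98–11). None of the gated polyp barcodes occurred in the normal library, although 44 barcodes were shared by the libraries as a whole. The share of endothelial cells depends on how well each tissue was dissociated, which was not measured.

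The gated cells were not all endothelial. In 17 of the 78 polyp cells, UMIs of 6 epithelial genes (Epcam, Krt8, Krt18, Krt19, Cldn7 and Cdh1) outnumbered UMIs of 32 pan-endothelial genes that the gate did not use, such as Flt1, Emcn, Tie1 and Sox18. These epithelial-leaning cells had a median of 69 epithelial and 1 pan-endothelial UMIs, and between 2 and 44 Epcam UMIs each. They were deep, with a median of 15533 UMIs, and reached the gate with 3 to 6 gate UMIs. Although they were 17 of 78 cells, they held 63.4% of all UMIs in the gate. At the threshold itself, 14 of the 19 cells with exactly 3 gate UMIs leaned this way, as did 53 of the 58 cells that missed the gate with 2 gate UMIs. Those 58 cells had a median of 1 pan-endothelial UMI, and the 19 just inside had a median of 2.

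The other 61 polyp cells had at least as many pan-endothelial as epithelial UMIs and are called endothelial-leaning. They made up 0.721% of kept polyp cells (0.552–0.925) and carried 190690 UMIs, with a median of 2172 per cell and a range from 619 to 19010. Their median was 26 pan-endothelial UMIs, 2 epithelial UMIs and no Epcam. In normal duodenum 6 of the 7 gated cells were endothelial-leaning, with 17312 UMIs in all. The ratio of the shares was then 3.91 (1.7–11.1). This division was made after the cells had been seen, so values over all 78 cells are given beside the main results.

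**Figure D1:**
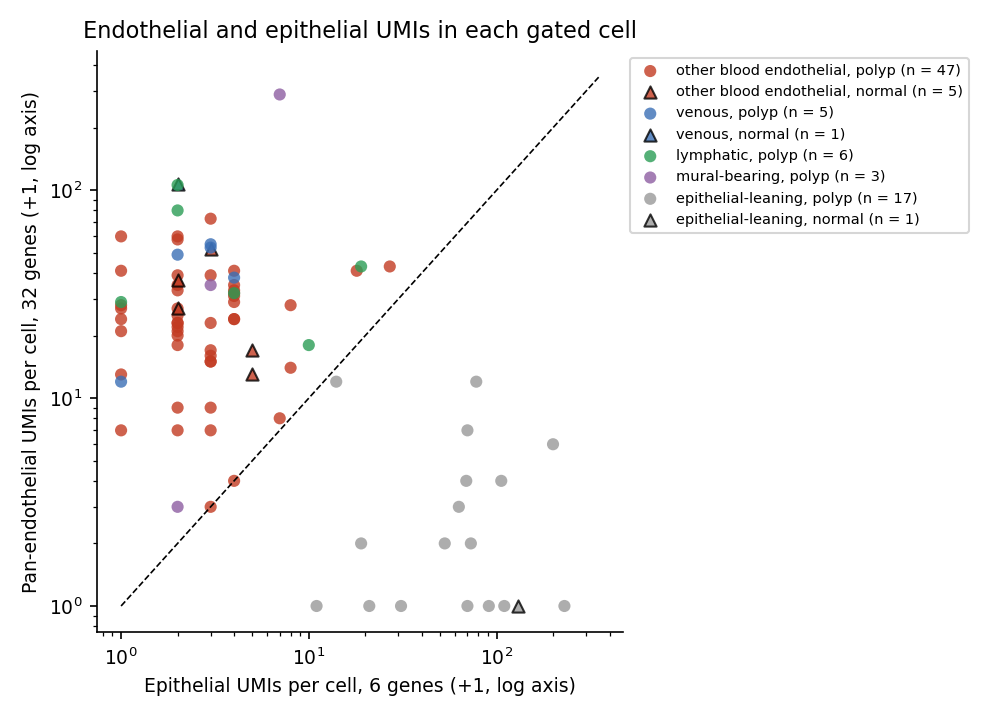
Each point is 1 gated cell, with its UMIs over 6 epithelial genes on the x axis and over 32 pan-endothelial genes on the y axis, both plus 1 on log axes; circles are polyp and triangles normal cells, and the dashed line marks equal counts. The 17 epithelial-leaning polyp cells and 1 normal cell lie below the line, and the 61 polyp and 6 normal endothelial-leaning cells lie on it or above it.

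Markers of fibroblasts, leukocytes, platelets and glia were scarce in the 61 cells. The 8 fibroblast genes summed to 8 UMIs, the 12 leukocyte genes to 33 UMIs and the 9 platelet genes to 1 UMI, and all 5 glial genes were at 0. The gate itself required Ptprc to be absent and Dcn, Col1a1, Col1a2 and Col3a1 to be low. These genes are on the leukocyte and fibroblast lists, so their scarcity follows from the choice of cells. Mural genes of pericytes and smooth muscle summed to 303 UMIs, of which 226 were in a single cell.

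Within the 61 cells, summed UMIs over marker lists separated several kinds, using a limit of 10 UMIs over a list that was also chosen after seeing the cells. Lymphatic genes passed it in 6 cells and mural genes in 3 others. Venous genes passed it in 7 cells, of which 1 was among the lymphatic and 1 among the mural-bearing cells, and the other 5 are called venous. The remaining 47 cells, here called other blood endothelial cells, had a median of 1828 UMIs. The name blood endothelium therefore applies to 52 of the 78 gated cells by these lists. In normal duodenum, 1 of the 6 cells was venous and 5 were other blood endothelial. None of the 6 had lymphatic genes at the limit of 2 UMIs, which with so few cells allows a share of up to 45.9% (Clopper-Pearson).

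The genes that marked the polyp endothelium most strongly outside the gate were canonical. The ranking covered all 78 gated cells, epithelial-leaning ones included, and used the lower interval end of the ratio to the other 8382 kept polyp cells. The first 25 were Ptprb, Adgrl4, Flt1, Mmrn2, Emcn, Fabp4, Flt4, Sox18, Ly6c1, Gpihbp1, Cyyr1, Apold1, Esm1, Adgrf5, Igfbp3, Sox7, Eng, Cavin2, Cav1, Tm4sf1, Rnd1, Ramp2, Gng11, Podxl and Timp3. Levels are summed UMIs per 1000000 UMIs of the group (CPM). Over the whole table, 15.6% of 14684 genes with at least 20 UMIs over both groups were at least 2-fold higher in the 61 cells with an interval clear of 1. All 32 pan-endothelial genes were among them. The gate used this contrast, so nothing is read from that count.

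Ptprb, which encodes the endothelial phosphatase VE-PTP, led the ranking. Among the 61 cells it had 114 UMIs in 38 and a level of 598 CPM (493–718), against 0.151 CPM in the other kept cells. Flt1 (ENSMUSG00000029648, chromosome 5: 147561604–147726011, GRCm38) had 224 UMIs in 45 cells, or 1175 CPM (1026–1339), against 0.640 CPM elsewhere. Emcn, the sialoglycoprotein endomucin of capillary and venous endothelium, stood at 577 CPM (474–695) against 0.320 CPM. Fabp4, a fatty acid carrier of capillary endothelium, was the most abundant of the 25 at 4804 CPM (4498–5125), with 916 UMIs in 54 of 61 cells. It was at 3.74 CPM in polyp leukocytes, with a UMI in 7 of 868 cells. Free RNA itself was not measured. Sox18 and Sox7, transcription factors of vascular development, had 63 and 59 UMIs in 30 and 23 cells.

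**Figure D2:**
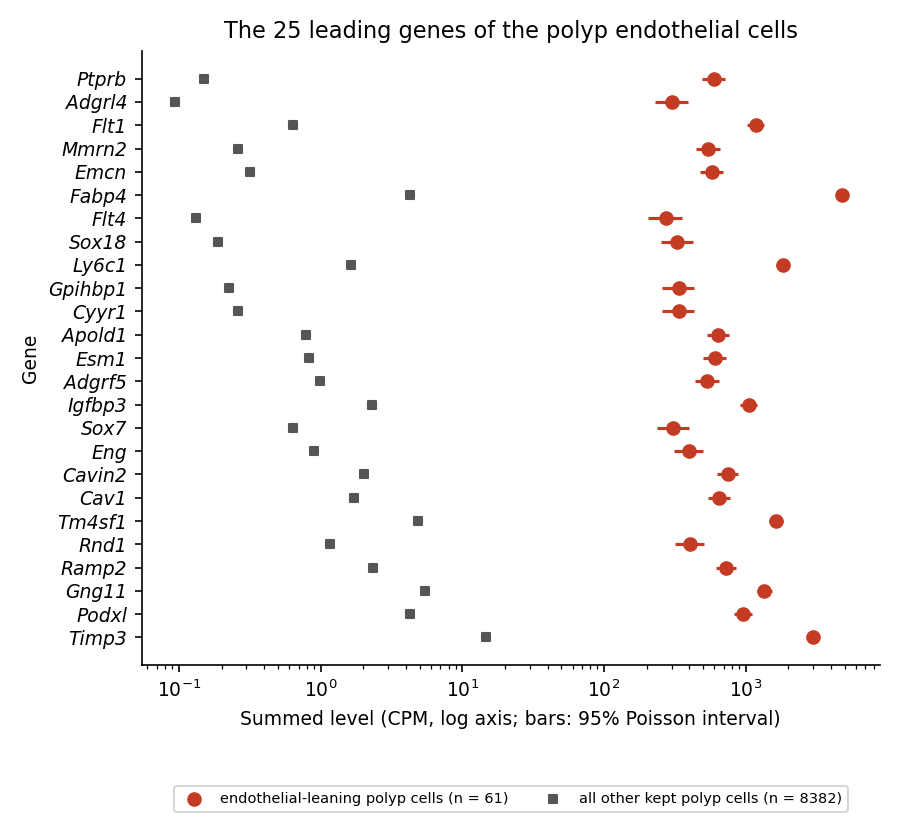
Summed levels of the 25 leading genes, as CPM on a log axis, in the 61 endothelial-leaning polyp cells (circles, bars are 95% Poisson intervals) and in the 8382 other kept polyp cells (squares). The genes were ranked over all 78 gated cells. Levels ran from 273 CPM for Flt4 to 4804 CPM for Fabp4 in the endothelial cells, while none of the 25 was above 14.7 CPM in the other cells.

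Promoters of the leading genes are shown because these genes were all ranked by their high level in the gated cells over other polyp cells, which does not show that they vary together from cell to cell. RefSeq promoter sequences (GRCm38.p6, 250 bases before to 50 after the start) were matched by symbol for 15 of the 25 genes, giving 18 promoters. The letters AGGAAG, or CTTCCT on the other strand, were present in 12 of the 18 (66.7%) and in 35.4% of all 32851 promoters. These letters hold the GGAA core bound by ETS factors, a family that includes ERG and FLI1 of endothelium. A match is a description of the sequence and does not show binding. The first 3 leading genes with a match are shown 5′ to 3′ on the strand of the gene, with the matched letters in capitals. They are Adgrl4 at chr3:151437632-151437931 (plus strand), Flt1 at chr5:147725962-147726261 (minus strand) and Emcn at chr3:137340828-137341127 (plus strand).
Adgrl4: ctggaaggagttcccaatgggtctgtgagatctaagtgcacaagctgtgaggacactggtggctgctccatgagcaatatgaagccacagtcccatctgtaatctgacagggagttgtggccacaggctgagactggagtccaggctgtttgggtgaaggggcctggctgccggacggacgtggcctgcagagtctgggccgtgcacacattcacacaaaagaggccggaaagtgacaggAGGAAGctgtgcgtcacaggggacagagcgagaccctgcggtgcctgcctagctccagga
Flt1: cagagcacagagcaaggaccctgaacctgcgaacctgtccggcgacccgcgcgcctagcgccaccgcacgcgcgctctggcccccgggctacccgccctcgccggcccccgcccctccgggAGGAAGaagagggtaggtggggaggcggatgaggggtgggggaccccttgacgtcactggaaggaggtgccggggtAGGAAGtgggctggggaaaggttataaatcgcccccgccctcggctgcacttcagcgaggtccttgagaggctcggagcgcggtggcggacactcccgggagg
Emcn: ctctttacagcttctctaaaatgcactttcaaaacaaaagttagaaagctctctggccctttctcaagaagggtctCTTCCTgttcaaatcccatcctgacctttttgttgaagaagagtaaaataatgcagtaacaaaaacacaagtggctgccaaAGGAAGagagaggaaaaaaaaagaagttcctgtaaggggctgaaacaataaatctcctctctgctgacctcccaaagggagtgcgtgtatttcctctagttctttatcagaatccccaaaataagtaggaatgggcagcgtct
The Flt1 promoter held 2 matches, Adgrl4 held 1, and Emcn held 1 on either strand.

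Capillary genes were the most widespread vessel-type signature. At least 2 UMIs over 10 capillary genes outside the gate were found in 57 of the 61 endothelial-leaning cells, 93.4% (84.1–98.2), and in 62 of all 78. The same was true of 25.7% of polyp stromal cells, 14.9% of polyp leukocytes and 9.88% of polyp epithelial cells. Their medians were 2189, 2097.5 and 11122 UMIs. All cells were then thinned to 1000 UMIs, which left out 9 endothelial cells, 27 stromal cells and 81 leukocytes. The shares were 92.3% (81.5–97.9) in endothelial cells, 14.4% in stroma and 5.21% in leukocytes. Fabp4 in the 47 other blood endothelial cells ranged from 0 to 48 UMIs with a median of 12. Cd300lg, which encodes the sialomucin nepmucin of capillaries and venules, had a UMI in 29 of those 47 cells. Gpihbp1, which anchors lipoprotein lipase to the capillary wall, had a UMI in 20, and Rgcc in 32.

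Plvap, the diaphragm protein of fenestrae and one of the gate genes, was found in 41 of the 47 other blood endothelial cells, with a median of 4 UMIs and a highest value of 19. It had 0, 3, 6, 7 and 9 UMIs in the 5 venous cells. The 6 lymphatic cells had none. Kdr had a UMI in 39 of the 47 cells and a median of 2 UMIs, while the venous cells had 0, 0, 0, 1 and 1. Both genes were in the gate, so their presence in the cells and their spread among the kinds are partly fixed by the choice of cells. With both genes left out of the gate, cells with at least 2 capillary UMIs went from 62 to 49, while 26 venous and 8 lymphatic marks were found either way.

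The 5 venous cells carried genes of leukocyte entry. Selp, which encodes P-selectin, had 0, 1, 3, 6 and 14 UMIs in these cells. Madcam1, the gut addressin that binds the lymphocyte integrin α4β7, had 0, 3, 4, 4 and 5 UMIs. Both were at 0 in all 47 other blood endothelial and all 6 lymphatic cells, and Madcam1 was also at 0 in every other kept polyp cell. Vwf, which encodes von Willebrand factor of endothelial storage granules, had 1, 2, 2, 4 and 12 UMIs. Ackr1, a chemokine-binding receptor of venules, was found in 2 of the 5 cells with 3 UMIs in all, and Sele, which encodes E-selectin, had 0 UMIs in all 78 cells. Cytl1 was not on the list that defined these cells, and its 25 UMIs were in 3 of the 5 venous cells. Selp, Madcam1, Vwf and Ackr1 were on that list, so their concentration in these cells follows from the choice.

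By the lower limit of 2 UMIs over 9 venous genes, 16 of the 61 and 26 of the 78 cells were marked. The venous mark in the epithelial-leaning cells came mainly from Lrg1, which had 261 UMIs in the 17 cells and stood at 469 CPM in polyp epithelium. In that epithelium 59.5% of cells (57.8–61.3) passed the same venous limit, so this limit does not separate veins from epithelium.

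Arterial genes were thinly spread. At the limit of 10 UMIs they passed in 3 of the 61 cells, which are 1 mural-bearing and 2 lymphatic cells with 73, 10 and 25 arterial UMIs, and no kind was made of them. At least 2 UMIs over 10 arterial genes were found in 22 of the 61 cells, and 21 of these 22 also passed the capillary limit. That share of 36.1% stands beside 11.2% of polyp stroma, 6.95% of polyp epithelium and 0.461% of polyp leukocytes. Thinned to 1000 UMIs, it was 17.3% in the endothelial-leaning cells and 1.88% in stroma. Efnb2, the arterial ligand ephrin-B2, had 36 UMIs in 15 cells. Gja5, which encodes connexin 40 of arteries, had 2 UMIs in 2 cells. Sema3g, an arterial semaphorin, had 16 UMIs, of which 81.2% were in a single cell. That cell, the mural-bearing one with 73 arterial UMIs, also held 226 mural, 205 capillary, 23 venous and 288 pan-endothelial UMIs, with 19010 UMIs in all, 9.97% of the UMIs of the 61 cells. Its Rgs5 count, a pericyte gene, was 162. The other mural-bearing cells held 21 and 46 mural UMIs, and the latter had only 2 pan-endothelial UMIs.

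**Figure D3:**
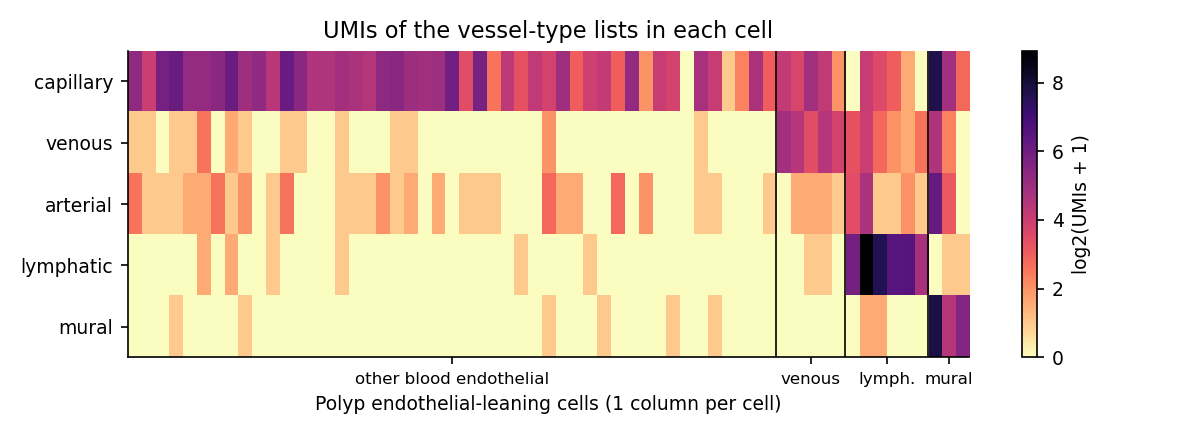
UMIs of 5 gene lists (rows, colour as log2 of UMIs plus 1) in each of the 61 endothelial-leaning polyp cells (columns, sorted by kind and then by gate UMIs). Capillary genes run through nearly all cells, whereas lymphatic genes are dense in 6 cells and mural genes in 3.

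The 6 lymphatic cells were the clearest separate kind. The T-cell and dendritic cell chemokine gene Ccl21a (ENSMUSG00000094686, chromosome 4: 42772860–42773993, GRCm38) had 4, 12, 48, 66, 126 and 272 UMIs in them and 0 in the 47 other blood endothelial cells. Its reads may be shared with near-identical copies in the mouse genome, so the value is uncertain as to the copy. Mmrn1, a lymphatic multimerin, had 5, 8, 11, 22, 31 and 79 UMIs, and Lyve1, the hyaluronan receptor, had 7, 8, 8, 19, 24 and 79. Prox1, the master regulator of the lineage, had 19 UMIs in 5 of the 6 cells and none in any other of the 61. These 3 genes had no UMI in the 47 cells, but they helped to define the kind. Flt4, also on the list, had 41 UMIs in 5 lymphatic cells and 8 UMIs in 6 other blood endothelial cells.

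Genes outside the lymphatic list were compared between these 6 and 47 cells by a ranking on the interval end nearest 1. The kinds were defined on the same cells, so the values are a description. Nts, which encodes the gut peptide neurotensin, had 0, 0, 5, 5, 9 and 87 UMIs in the lymphatic cells and 0 in the 47, at least 74.2-fold higher against a floor of 3 UMIs for the 47 cells together. One cell held 82.1% of it. Fgl2, which encodes a fibrinogen-like prothrombinase, had 88 UMIs in all 6 cells against 0, at least 61.6-fold higher. The matrix protein gene Prelp had 40 UMIs in 6 cells and the transcription factor gene Maf had 26 UMIs in 6 cells, against 0 for both. Rspo3, which encodes an R-spondin that enhances Wnt signalling, had 21 UMIs in 5 lymphatic cells and 0 in the 47. Lcn2, Igfbp5, Cp, Fxyd6, Pard6g, Ntn1 and Ifi27l2a completed the 12 highest-ranked genes, with 23 to 100 UMIs against at most 2.

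Several blood endothelial genes had no UMI in the lymphatic cells, while others were present. Flt1 had 186 UMIs in 39 of the 47 cells and 0 in the 6, at least 29.5-fold lower. Ly6c1 was at least 43.8-fold lower, Plvap at least 32.8-fold, Ly6a at least 30.6-fold, Esm1 at least 17.0-fold and Nrp1 at least 16.2-fold. Fabp4 had 9 UMIs in 3 lymphatic cells and was 37.9-fold lower (19.9–83.3). Kdr was present in both kinds, at a lymphatic level 0.372 times that of the 47 cells (0.233–0.573). Gpihbp1 had 0, 0, 0, 4, 4 and 12 UMIs in the lymphatic cells, at 412 CPM against 431 CPM in the 47 cells, a ratio of 0.955 (0.533–1.65). Emcn had 15 UMIs in 4 of the 6. The deepest lymphatic cell held 35.8% of the UMIs of the 6, so summed levels lean on it.

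**Figure D4:**
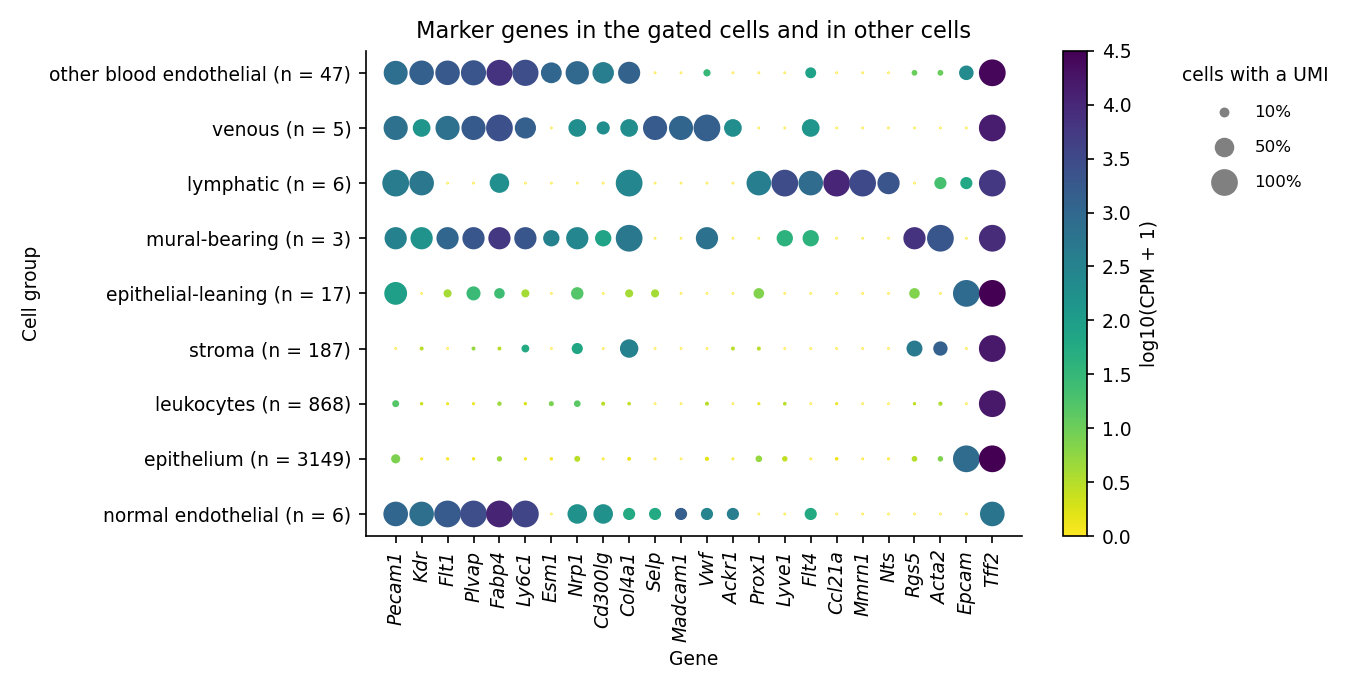
Marker genes (columns) in the kinds of gated polyp cells, in other polyp cells and in normal endothelial cells (rows); dot size is the percentage of cells with a UMI and colour is the summed level as log10 of CPM plus 1. Selp and Madcam1 appear in the venous cells and Ccl21a and Mmrn1 in the lymphatic cells, while Tff2 is found in all polyp groups.

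Polyp and normal endothelium were compared to ask how vessel genes differ between polyp and normal mucosa. The comparison is small on the normal side: 6 endothelial-leaning cells, of which the single venous cell held 47.2% of the UMIs. It was therefore made over the 61 and 6 cells and again over the 47 and 5 other blood endothelial cells, which leaves that cell out. For the genes that matter most, the ratio of mean per-cell CPM, in which each cell counts the same, is given as well; both additions were made after seeing the data. Genes with at least 20 UMIs over both groups were compared, and a gene is called higher or lower where its ratio passed 2-fold and its interval left out 1. Over 61 and 6 cells, 5.36% of 1603 genes were higher and 5.36% were lower, 86 in each direction. Over 47 and 5 cells, 4.27% of 819 genes were higher and 5.25% were lower. Over all 78 and 7 gated cells, 4.07% of 3584 genes were higher and 6.75% were lower, with a median log2 ratio of -0.19, against -0.04 in both smaller comparisons. Of the 86 genes, 41 of the higher and 67 of the lower were called over all gated cells too.

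The genes that ranked highest in the polyp cells were of gastric epithelium, and those that ranked lowest included pancreatic enzymes. Tff2, a trefoil peptide of gastric mucous cells, had a UMI in all 61 polyp cells at 17757 CPM, against 578 CPM in normal endothelium. In polyp leukocytes, which do not make it, Tff2 had a UMI in 868 of 868 cells at 16315 CPM, close to its endothelial level. Gkn3, Tff1, Agr2, Pgc, Gkn1 and Gkn2 were also among the 12 highest, and each had a UMI in at least 330 of the 868 leukocytes. Tff1, Gkn1 and Gkn2 were higher in leukocytes than in the endothelial cells. Pgc, the pepsinogen gene of gastric glands, was at 1248 CPM in the endothelial cells against 219 CPM in leukocytes, with UMIs in 19 of the 61 cells, and the source of that excess was not tested. The pancreatic protease gene Ctrb1 had 3, 5, 8, 5, 3 and 9 UMIs in the 6 normal cells and was at 1906 CPM there, while normal leukocytes had it at 3032 CPM. Try4, Try5, Pnlip and Prss2 were likewise lower in the polyp cells and present in normal leukocytes at 954 to 1896 CPM. Leukocytes are not known to make these gastric and pancreatic products, so where an endothelial level of them was at or near that of leukocytes it is not read as endothelial expression. For genes that leukocytes express themselves, such as those of MHC class I or the immediate-early response, the leukocyte level gives no such background, and the part of free RNA in them was not tested.

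Among genes with little such background, Esm1 and Col4a1 stood highest in polyp blood endothelium. Esm1 (ENSMUSG00000042379, chromosome 13: 113209659–113218098, GRCm38) encodes endocan, a secreted proteoglycan of VEGF-stimulated and tip-cell endothelium. It had 116 UMIs in 28 of the 61 polyp cells, or 608 CPM (503–730), and 0 in all 6 normal cells. The polyp level was at least 3.51-fold higher against a floor of 3 UMIs over the 6 cells. Within the polyp, 107 of these UMIs were in 27 of the 47 other blood endothelial cells, with a highest value of 12, and the venous and lymphatic cells had none. Over 47 and 5 cells the lower interval end of the ratio was 2.55. Polyp leukocytes had Esm1 at 7.06 CPM, with a UMI in 12 of 868 cells.

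Col4a1, a chain of the type IV collagen of basement membrane, had 158 UMIs in 42 polyp cells and 1 UMI in normal endothelium. Its ratio was 14.3 (2.54–570) over 61 and 6 cells and 11.6 (2.04–460) over 47 and 5, and with each cell equal it was 17.4 and 17.3. Polyp stroma also had Col4a1, at 351 CPM, against 829 CPM in the endothelial cells. Its partner chain Col4a2 had a ratio of 2.39 (0.789–11.8), with an interval that includes 1. Col15a1, a basement membrane collagen, had 70 UMIs in 30 cells against 1 UMI, a ratio of 6.36 (1.1–255) over 61 and 6 cells and 5.11 (0.88–205) over 47 and 5, and with each cell equal it was 2.88 and 2.77. The list of 14 basement membrane genes as a whole had a median log2 ratio of -0.57 over its 11 tested members. Of these, 2 were higher and 0 lower, beside 5.36% of all genes in each direction. Over 47 and 5 cells, Col4a1 was higher and Hspg2, which encodes perlecan, lower among 7 tested.

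Of the VEGF and angiopoietin receptors, 1 of 7 tested genes was higher and 0 were lower, beside 5.36% of all genes in each direction. Their median log2 ratio was 0.04. The higher one was the co-receptor Nrp1, with 112 UMIs in 39 polyp cells against 1, 1, 0, 1, 0 and 0 UMIs in the normal cells. Its ratio was 3.39 (1.13–16.7), and 3.05 (1.01–15) in the other blood endothelial cells. With each cell equal the ratio was 2.12 and 2.23. Kdr, a gate gene, had a ratio of 1.2 (0.684–2.3) and Flt1 of 0.701 (0.475–1.07), both with intervals that include 1. Of 13 sprouting genes, 5 had enough UMIs and Esm1 alone was higher. Apln had 9 UMIs in 2 polyp cells, Angpt2 7 UMIs in 4, and Dll4 22 UMIs in 13, against 0 in the normal cells for each. At 17312 UMIs, a normal count of 0 allows a level of up to 173 CPM, so differences in these 3 genes were not detectable at this depth.

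Sparcl1, a matricellular protein of capillary endothelium, had 154 UMIs in 41 polyp cells against 3 UMIs in 2 normal cells. Its ratio was 4.66 (1.57–22.8), and 3.05 (1.01–15) in the other blood endothelial cells, and the mural-bearing cells, absent from the latter, held 50 of the UMIs. With each cell equal it was 5.64 and 5.44. Several further genes passed 2-fold over 61 and 6 cells but not over 47 and 5. Timp3, a metalloproteinase inhibitor, went from 3.26 (1.99–5.74) to 1.63 (0.891–3.32), and the lymphatic cells held 245 of its 574 UMIs. Podxl went from 2.39 (1.14–6.02) to 1.54 (0.723–3.9) and Tm4sf1 from 2.36 (1.33–4.62) to 1.43 (0.777–2.91). Cdh5, the VE-cadherin of endothelial junctions, was one of the genes that chose the cells, so its ratios are only described. They were 3.57 (1.19–17.6) over 61 and 6 cells and 1.88 (0.615–9.37) over 47 and 5, and with each cell equal 4.38 and 3.57.

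Fabp4 and Gpihbp1, genes of the capillary lipid route, had lower levels in polyp than in normal endothelium. Fabp4 (ENSMUSG00000062515, chromosome 3: 10204088–10208576, GRCm38) had 10, 3, 36, 96, 46 and 4 UMIs in the 6 normal cells, or 11264 CPM (9738–12961), against 4804 CPM in the polyp. Its ratio was 0.426 (0.365–0.5) over 61 and 6 cells and 0.404 (0.34–0.483) over 47 and 5. All 6 normal cells had the gene, but 142 of its 195 UMIs were in 2 cells. With each cell equal the ratio was 0.600 and 0.653, so the size of this difference depends on the deeper cells and then stays within 2-fold. The lipase anchor Gpihbp1 had a ratio of 0.528 (0.276–1.11), and 0.358 (0.182–0.769) in the other blood endothelial cells, with 0.340 and 0.324 when each cell counted the same. The fatty acid receptor Cd36 was lower at 0.461 (0.246–0.942), but 8 of its 12 normal UMIs were in the venous cell and over 47 and 5 cells its ratio was 0.985 (0.359–3.78). Of the 12 tested genes for caveolae and lipid handling, 2 were lower and 0 higher, beside 5.36% of all genes in each direction. Their median log2 ratio was -0.64.

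Of the pan-endothelial genes outside the gate, 5 of 29 tested over 61 and 6 cells were lower and 1 higher, with a median log2 ratio of -0.43, beside 5.36% of all genes in each direction. In the comparison of 47 and 5 cells, 2 of 22 were lower (Adgrf5 and Ptprb) and 0 higher, beside 5.25% of all genes lower. The 5 over 61 and 6 cells were Eng, Cldn5, Ramp2, Calcrl and Ptprb, and the higher one was Podxl. Calcrl, an adrenomedullin receptor, had 11 of its 13 normal UMIs in the venous cell, and with each cell equal its ratio was 0.795 and, without that cell, 1.18. Ptprb, with 1, 3, 12, 5, 1 and 2 UMIs in the normal cells, had a ratio of 0.431 (0.276–0.701), and 0.455 (0.243–0.929) in the other blood endothelial cells. The tight-junction gene Cldn5 had 16 UMIs in the normal venous cell and 0 in the other 5, so its ratio of 0.113 rests on that cell. In the polyp, 15 of the 20 Cldn5 UMIs were in the 6 lymphatic cells. Madcam1, Lrg1 and Cytl1 were lower in the same way, with all normal UMIs in the venous cell. Among the venous cells themselves the comparison is 5 against 1 cell, and no ratio is given.

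MHC class I genes serve to present peptides to CD8 T cells. In the polyp endothelium, 4 of 6 tested genes of this list were lower and 0 higher, beside 5.36% of all genes in each direction. Their median log2 ratio was -1.29. Among the other blood endothelial cells 3 of 5 were lower, beside 5.25% of all genes. H2-K1 had 247 UMIs in the 61 cells against 55 in the 6, a ratio of 0.408 (0.303–0.557), and 0.42 (0.28–0.651) in the other blood endothelial cells. Psmb8, an immunoproteasome subunit, had a ratio of 0.163 (0.0839–0.33), and 0.199 (0.0867–0.497) in the other blood endothelial cells. With each cell equal, Psmb8 was at 0.200 and 0.225, while H2-K1 was at 0.513 and 0.552, within 2-fold. H2-T23 had 0.278 (0.153–0.537) and 0.294 (0.122–0.812), but 0.546 and 0.623 with each cell equal, within 2-fold. H2-D1 had 0.415 (0.308–0.568) over 61 and 6 cells and 0.609 (0.379–1.03) over 47 and 5, with 0.585 and 0.732 when each cell counted the same. B2m, the light chain of the class I molecule, had 0.999 (0.706–1.46) over 61 and 6 cells, and 1.55 and 1.80 with each cell equal, on the other side of 1 from the genes called lower. Leukocytes of the same libraries had lower levels in the polyp too, with ratios of 0.745 (0.71–0.781) for H2-K1 and 0.349 (0.319–0.38) for Psmb8. The leukocytes differed in make-up, with ratios of 0.154 for the T-cell gene Cd3e and 4.13 for the macrophage gene C1qa. Their ratios, here and below, therefore do not measure a difference between the libraries alone. The H2-K1 level was 1295 CPM in the 61 cells and 1188 CPM in polyp leukocytes. Whether the endothelial difference exceeds that of the libraries as a whole was not tested.

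Interferon-response genes showed 6 lower and 0 higher of 8 tested over 61 and 6 cells, beside 5.36% of all genes in each direction. Their median log2 ratio was -1.14. Over 47 and 5 cells, 1 of 7 was lower, beside 5.25% of all genes. Ifitm3 had 87 of its 119 normal UMIs in the venous cell, and its ratio moved from 0.443 (0.363–0.545) to 0.806 (0.558–1.2) without it, and was 0.702 and 0.968 with each cell equal. Ly6a, the stem cell antigen Sca-1 of endothelium, moved from 0.297 (0.231–0.386) to 0.596 (0.402–0.914), and was 0.460 and 0.629 with each cell equal. Ly6c1, a surface antigen of endothelium and monocytes, stood at 0.486 (0.372–0.644) and 0.442 (0.33–0.6), and at 0.590 and 0.622 with each cell equal. Cxcl10, the interferon-induced chemokine, had 14 and 11 UMIs in 2 normal cells, and 4 UMIs in 4 polyp cells. Polyp leukocytes had Cxcl10 at 1381 CPM and normal leukocytes at 568 CPM, the opposite order to that of the endothelium. MHC class II genes were scarce, with 29 UMIs in the 61 cells over 7 genes, and Cd74 was at 62.9 CPM against 4409 CPM in polyp leukocytes.

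Immediate-early and heat shock genes were abundant in both groups, at a summed 45855 CPM in polyp and 36911 CPM in normal endothelium. Of 18 tested genes, 4 were higher (Egr1, Nr4a1, Hspa1b and Hsp90aa1) and 2 were lower (Ier2 and Ier3), beside 5.36% of all genes in each direction. In the other blood endothelial cells only Nr4a1 of the 18 was higher, and Ier2 and Dusp1 were lower, beside 4.27% and 5.25% of all genes. With each of the 61 and 6 cells equal, Egr1 was at 1.35, Hsp90aa1 at 1.72, Ier2 at 0.631 and Ier3 at 0.596, all within 2-fold. Nr4a1 had 91 UMIs in 27 polyp cells and 0 in normal endothelium, while leukocytes had it at 355 CPM in the polyp and 386 CPM in normal duodenum. Hspa1b had a ratio of 3.22 (2.3–4.64), and 1.99 (1.31–3.17) in the other blood endothelial cells, against 1.43 (1.38–1.48) in leukocytes. With each cell equal, Hspa1b was at 2.99 over 61 and 6 cells and 2.68 over 47 and 5, past 2-fold. Klf4, a flow-responsive factor, had a ratio of 3.11 (1.67–6.55), and 4.64 (4.1–5.27) in leukocytes. Its ratios with each cell equal were 2.62 and 2.48. These genes also respond to tissue digestion, whose part in the differences was not tested.

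Klf2, the other flow-responsive factor, was at 2779 CPM in the polyp and 3061 CPM in normal endothelium, a ratio of 0.908 (0.684–1.23), and of 1.24 and 1.66 with each cell equal. Of 3 tested Notch genes, the target Hes1 was higher at 4.4 (1.19–36.9). The lymphatic cells held 64 of its 97 UMIs, and over 47 and 5 cells its ratio was 0.985 (0.242–8.65). Among 10 tested genes of BMP and TGF-beta signalling none was higher, beside 5.36% of all genes in each direction. Acvrl1 and Eng, the ALK1 receptor and its co-receptor, were lower, at 0.403 (0.193–0.946) and 0.493 (0.276–0.944). Over 47 and 5 cells the intervals of both included 1, at 0.493 (0.167–1.97) and 0.504 (0.235–1.24). With each cell equal, Acvrl1 was at 0.422 and 0.425 and Eng at 0.348 and 0.338. The BMP target Id3 alone was higher among 8 tested over 47 and 5 cells, beside 4.27% of all genes. Edn1, the vasoconstrictor endothelin-1, was lower at 0.163 (0.0839–0.33), and 0.314 (0.122–0.949) in the other blood endothelial cells. Of 6 tested coagulation genes none was called, and thrombomodulin (Thbd) had a ratio of 1.1 (0.512–2.82).

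The targeted gene Stk11 (ENSMUSG00000003068, chromosome 10: 80115803–80130682, GRCm38), which encodes LKB1, had 11 UMIs in 11 of the 61 cells and 1 UMI in normal endothelium. With so few UMIs its level of 57.7 CPM (28.8–103) could not be told from that of normal endothelium, 57.8 CPM (1.46–322). None of the 21 genes for LKB1 and its kinases had enough UMIs to be compared. Mki67, the proliferation marker, had 6 UMIs in 4 polyp cells, of which 2 were venous and 2 lymphatic, and none of the 47 other blood endothelial cells had a UMI. A count of 0 in 102070 UMIs allows up to 29.4 CPM. Other proliferation genes lay both ways. In the 47 cells the mean per-cell level was 9.48 CPM for Top2a, 6.35 for Cdk1 and 12.7 for Ccnb1, all at 0 in the venous cells. Birc5, Ccnb2, Cenpf and Rrm2 were at 0 in the 47 cells and present in others of the 61. Of 4 tested proliferation genes none was called higher or lower.

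**Figure D5:**
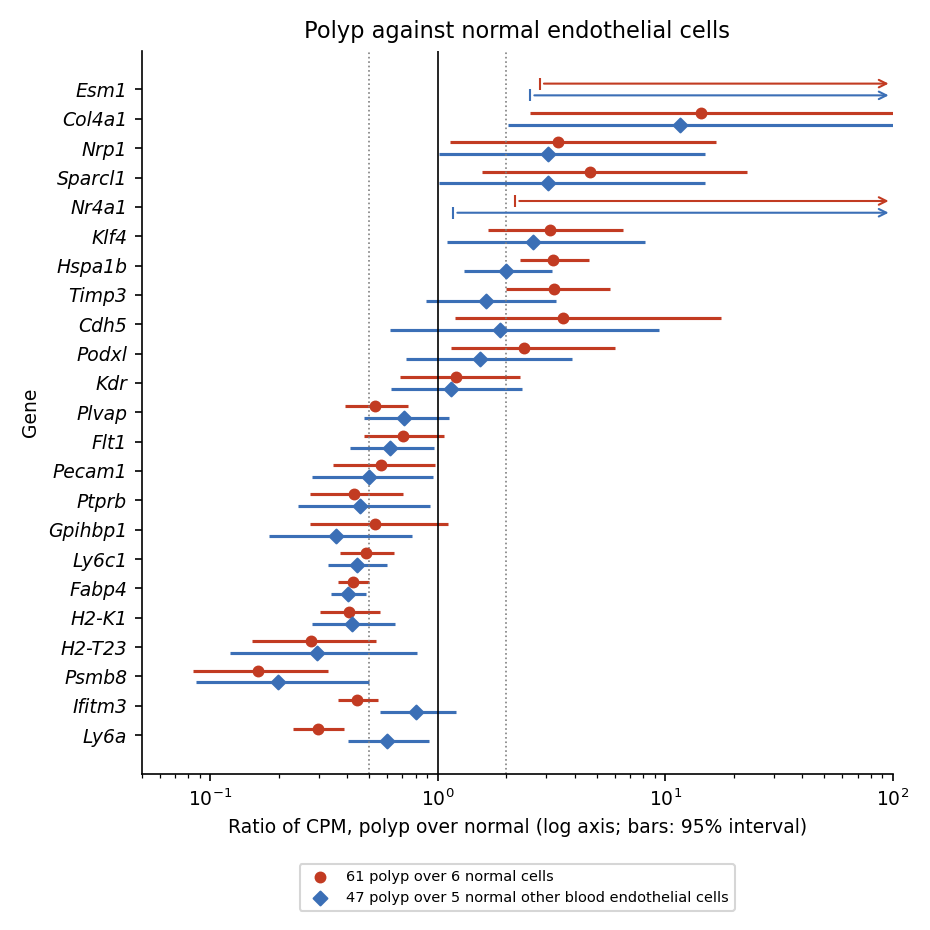
Ratio of summed CPM, polyp over normal, for 23 genes on a log axis, over 61 and 6 endothelial-leaning cells (circles) and over 47 and 5 other blood endothelial cells (diamonds); bars are 95% intervals, cut at the edge of the axis, arrows start at the lower interval end where normal cells had 0 UMIs, and dotted lines mark 2-fold. Esm1, Col4a1 and Nrp1 lie above 1 and Fabp4, Ly6c1 and Psmb8 below 1 in both comparisons, whereas the intervals of Timp3, Cdh5 (a gate gene), Podxl and Ifitm3 include 1 in the comparison of 47 and 5 cells.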

How the data were processed

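Each library was made with the 10x Genomics 3′ v3 protocol after collagenase digestion, per the labels. The deposited values were raw counts of UMIs per gene and barcode. The submitters' processing notes name Cell Ranger 3.0.0 and mm10, and the matrix header names Cell Ranger 5.0.0, per the file headers. Counts were summed over cells, divided by the summed UMIs and given per 1000000 (CPM), with exact Poisson intervals, Clopper-Pearson intervals for shares and exact conditional binomial intervals for ratios. Medians of log2 ratios add 0.5 UMIs per group. Gene positions came from GENCODE vM21 (GRCm38). Doublets were scored with scrublet (scanpy 1.11.5); its automatic threshold marked 0 cells in either library, so no cell was removed, and an alternative removed the 573 and 85 highest scores, which took 6 and 0 gated cells, none of them epithelial-leaning. Rankings omitted genes of the mitochondrion, ribosome, haemoglobin and immunoglobulins, sex-linked genes and predicted models. Leading genes had at least 50 UMIs over the 78 gated polyp cells and a UMI in 10% of them. Between groups, 12 genes each way were named. The reference classes were stroma (187 cells), leukocytes (868) and epithelium (3149). Members and lists were chosen with earlier results of these data known. Intervals were checked on simulated Poisson counts per gene. These hold no spread between cells, so the check does not cover the unequal spread of UMIs among the cells here. The software was Python 3.11.15, numpy 2.4.6, scipy 1.17.1 and pandas 2.3.3.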

Additional observations from a re-analysis of the deposited data

How the results depend on the processing

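Of 148 alternative values, 107 stayed within 1.5 times the main count or within the interval of the main value, and 41 lay outside. The ratios of polyp to normal among these values were those of Fabp4, H2-K1, Hspa1b, Klf4, Madcam1 and the share of cells. None of them moved to the other side of 1, while counts and shares have no direction to reverse. Other genes were not followed in this way, and with each cell equal the ratios of Klf2 and B2m given above did cross 1. For single genes, 12 lay outside the intervals of the main values and 33 did not. These intervals can be wide: Klf4 went from 1.77 to 3.11 without the epithelial-leaning cells inside its own, and with at most 10% mitochondrial UMIs its interval of 0.992–3.86 included 1. With 2 gate UMIs in place of 3, the polyp gave 136 cells (1.61%), 73 of them with the venous mark, and 1020 genes higher than in other polyp cells against 1683; 243 genes were higher and 582 lower than in normal endothelium, against 146 and 242. With 5 gate UMIs the share was 0.638%, the venous mark 17, and 94 genes were higher and 112 lower. Without any collagen-list or Epcam UMI there were 44 cells (0.52%), with 9 venous, 12 arterial and 5 lymphatic marks against 26, 24 and 8, and 75 genes higher and 66 lower, which turns the balance from more lower to more higher. Without the epithelial-leaning cells, an alternative chosen after seeing the data, the share was 0.721%, the venous mark 16, and 86 genes were higher and 86 lower. Limits of 10 UMIs and of none on low genes gave 368 and 581 lower genes. At 1 UMI the venous, arterial and lymphatic marks were 43, 45 and 18, at 3 UMIs the arterial mark was 13, and thinning to 1000 UMIs gave 10 venous and 12 arterial marks. The cause of these changes was not tested. Removing the highest doublet scores left 72 cells (0.913%) and called 149 higher and 236 lower genes. No paired analysis was possible because each group is 1 library of pooled mice. No replicate could be left out for the same reason. The normal side, 17312 UMIs in 6 cells, limits every ratio. UMIs of gastric and pancreatic genes were found in leukocytes as well as in endothelial cells, and their source was not tested.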
